A study of Mus musculus with 2 samples.

Results

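The insulin-like growth factor axis was read in whole limb buds of mouse embryos at E10.5, in wild-type animals and in animals lacking Bhlha9. It comprised 10 genes: the ligand gene Igf1, the receptor gene Igf1r, the binding protein genes Igfbp1 to Igfbp7, and Igfals, which encodes the acid-labile subunit of the circulating complex. All probe sets annotated with exactly 1 symbol out of these were taken, 26 of 34945 single-symbol probe sets on the Affymetrix Mouse Genome 430 2.0 array (10 of 18193 genes), and every probe set was read separately. A probe set is a group of short oligonucleotides against the 3′ part of a transcript. Its value here is the MAS 5.0 signal, a linear intensity in arbitrary units that can be compared between arrays for the same probe set, not between probe sets.

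Both groups were of the C57BL/6 line. The wild-type group was 1 array, and so was the Bhlha9 knockout group. The sources used here do not give the build of the knockout allele, the number of embryos pooled or the mix of fore and hind buds. With 1 array a genotype there was no replicate, no test of the genotype was possible, and "higher" and "lower" describe these arrays only. The comparison asks which limb bud transcripts differ when Bhlha9, a basic helix-loop-helix transcription factor gene, is missing.

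IGF1 and IGF2 are secreted growth factors that bind the receptor tyrosine kinase IGF1R, which signals through insulin receptor substrates to PI3K, AKT and mTOR and through the ERK cascade. Binding proteins hold the ligands in tissue fluid and blood, limiting or prolonging their access to the receptor, and proteases release the ligand again. In embryos the axis supports growth of most tissues, and in limbs it supports expansion of mesenchyme and cartilage. In the embryo the ligand is made by mesenchyme and by liver, and IGFBP1 is chiefly a liver product.

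Both arrays carried 45101 probe sets, and the 2% trimmed mean signal was 500.003 on each. In place of a detection call, a floor was laid at the 40th percentile of the signals without controls, which was 41.2 for wild-type and 41.8 for knockout. The probe set for Bhlha9 gave 7.87 and 1.70, under the floor on both arrays, so it did not check the labels. Limb mesenchyme markers such as Prrx1 were above the floor for 10 of 10 genes on both arrays, with a summed signal of 33853 in wild-type and 18338 in knockout. The knockout array stood apart in other tissues. Embryonic liver markers were above the floor for 2 of 13 genes in wild-type and 12 of 13 in knockout, with summed signals of 404 and 33876. For neural tube and nerve the sums were 556 and 4469, for muscle and somite 1814 and 4448, for limb ectoderm and ridge 6231 and 10683, for mesothelium and flank 1064 and 2160, for primitive erythroid cells 85016 and 90375, and for endothelium 6449 and 5010. No result can be given without the knockout array, and the part of these tissues in the values below was not tested. In RNA from whole tissue, fewer cells of a type and less RNA per cell cannot be told apart.

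Of the 26 probe sets, 21 lay above the floor on both arrays and 3 more on 1 array only, so 24 had a ratio or a bound. The ligand gene was higher and the receptor gene lower on the knockout array, while the binding proteins went in different directions. Of those 24, 5 differed by 2-fold or more toward higher signal in knockout, 3 of them for Igf1 and the others for Igfbp1 and Igfbp5, against a background of 3.38% among 24162 single-symbol probe sets. Only 1, for Igf1r, was at least 2-fold lower, against a background of 3.89%. These counts take Igf1 more than once, on the same RNA samples. By the brightest probe set of each gene, 2 of 9 member genes above the floor were at least 2-fold higher, Igf1 and Igfbp1. None was at least 2-fold lower. The shares over all 13088 genes were 4.15% and 2.65%. Higher probe sets made up 46.5% of all those past 2-fold at the deposited scaling and 58.2% after loess normalization. The 21 members above the floor on both arrays had a median log2 ratio, knockout minus wild-type, of 0.01, and the 20895 such probe sets of the whole array had one of -0.04. A median so near that of the array holds ratios from -1.10 to 2.03 for the members.

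**Figure D1:**
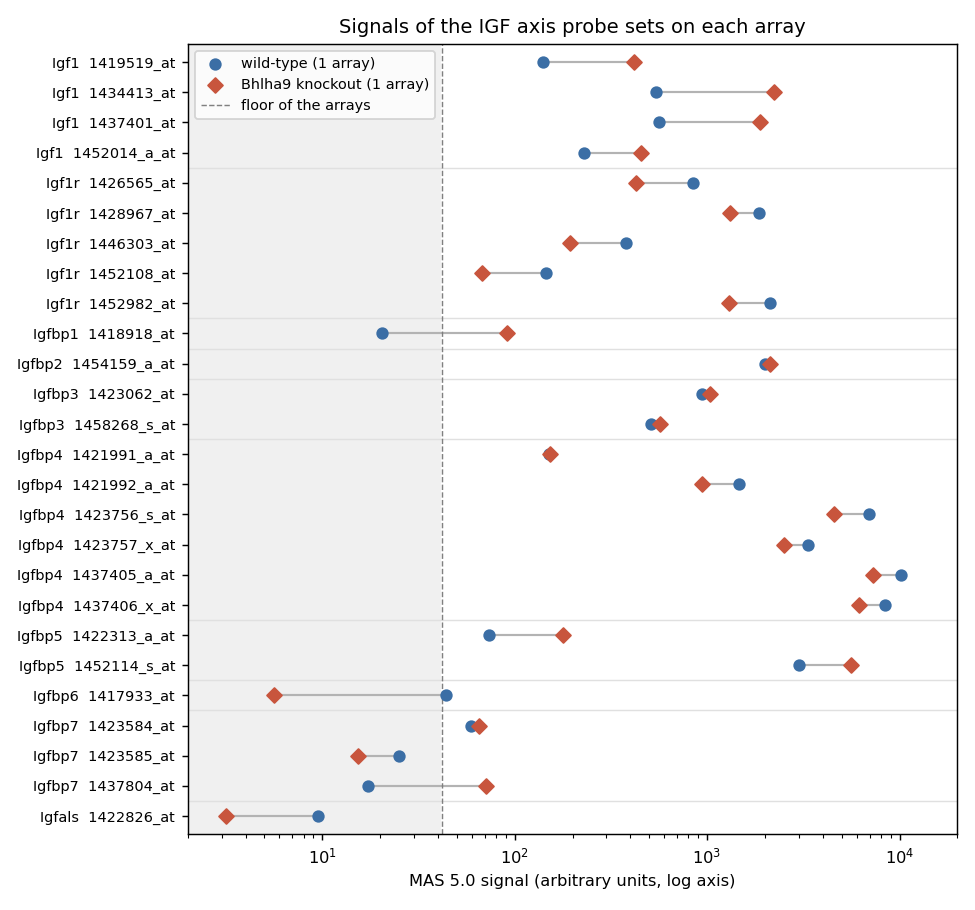
MAS 5.0 signals (log axis, arbitrary units) of the 26 probe sets, each on the wild-type array (circles) and the knockout array (diamonds), joined by a line. The grey area lies under the floor. All 4 Igf1 probe sets lie further right on the knockout array and all 5 Igf1r probe sets further left, while Igfals lies under the floor on both.

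Measurement error within the arrays was read from 5440 genes with 2 or more probe sets above the floor on both arrays. From the disagreement of each gene's brightest pair, a log2 ratio carries an SD of 0.28. Spread between embryos or between dissections is not part of it, so a ratio beyond 2 such SDs, 0.56, exceeds probe-level error only. This SD pools pairs of all signal levels and was not estimated for dim probe sets apart. A further yardstick is the robust SD of the ratios of all probe sets, which was 0.58 in the dimmest of 5 equal bins of signal and 0.34 in the brightest.

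Igf1 encodes the ligand itself. Probe set 1434413_at read 546 in wild-type and 2231 in knockout. That is 4.09-fold higher, or 2.03 as a log2 ratio. Probe set 1437401_at went from 563 to 1880, a log2 ratio of 1.74. Only 0.120% and 0.144% of the 4179 probe sets in the same signal bin had ratios as high as these. The dimmer probe set 1419519_at went from 140.1 to 416, a log2 ratio of 1.57. The remaining one, 1452014_a_at, which reads several transcripts of the gene, went from 230.4 to 454, with a log2 ratio of 0.98, just under 2-fold. In its signal bin 2.13% of probe sets had a ratio as high. All 4 ratios lay beyond 2 measurement SDs in the same direction. The platform annotation gives a different source sequence for each of the 4 probe sets. Whether they cover separate parts of the transcript was not checked. Their ratios had an SD of 0.44 over probe sets, which share both RNA samples and are no replicates of the genotype. Igf1 is expressed in embryonic liver as well as in mesenchyme, and the liver and mesenchyme markers went in opposite directions on these arrays, with median log2 ratios of 4.43 (a lower bound, since 10 of 12 liver genes did not exceed the wild-type floor) and -1.07. The part of either in the Igf1 signal was not tested.

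Igf1r encodes the receptor through which both IGF ligands promote growth. The brightest probe set, 1452982_at, read 2120 in wild-type and 1295 in knockout, 1.64-fold lower, with a log2 ratio of -0.71. In its signal bin, the brightest, 2.90% of probe sets had a ratio as low. Probe set 1428967_at, annotated with the same source sequence, went from 1862 to 1310, a log2 ratio of -0.51 that lay within 2 measurement SDs. Another pair shared a source sequence. It went from 841 to 429 for 1426565_at and from 145.1 to 67.4 for 1452108_at, with log2 ratios of -0.97 and -1.10. The last of these was the only member more than 2-fold lower, at 2.15-fold, and it lay in the dimmest signal bin, where 6.17% of all probe sets were at least 2-fold lower. Probe set 1446303_at went from 381 to 193.2, a log2 ratio of -0.98. The receptor was thus read lower by all 5 probe sets, which are annotated with 3 source sequences, and 4 of the 5 ratios exceeded 2 measurement SDs. Single ratios of this size were not rare, since between 2.57% and 17.8% of all probe sets above the floor on both arrays had one as low.

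**Figure D2:**
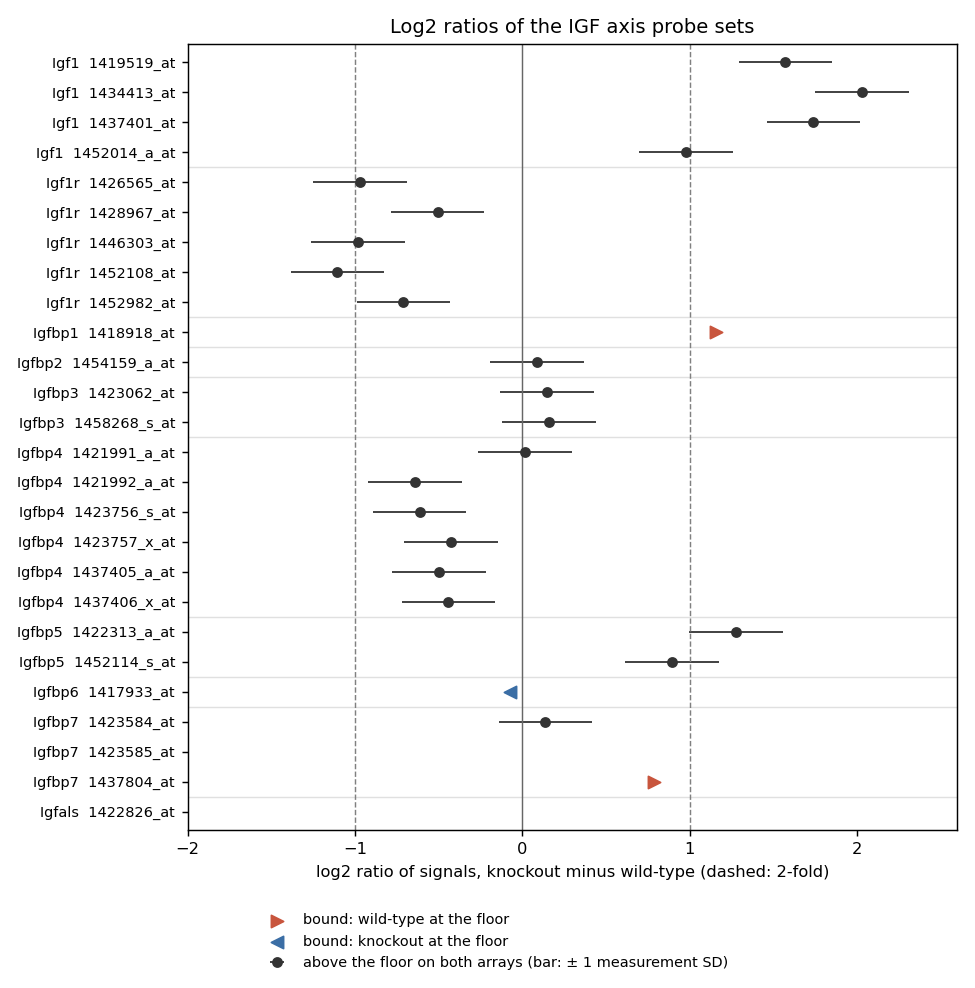
Log2 ratio of the signals (knockout minus wild-type) of each probe set, with bars of ± 1 measurement SD (0.28); triangles are bounds where 1 array was at the floor, probe sets at the floor on both have no mark, and dashed lines mark 2-fold. Igf1 ratios run from 0.98 to 2.03, Igf1r ratios from -1.10 to -0.51, and those of Igfbp2 and Igfbp3 lie between 0.09 and 0.16.

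Among the binding proteins, Igfbp5 and Igfbp1 were higher on the knockout array. IGFBP5 binds extracellular matrix as well as ligand, and it is the member whose protein is most conserved in the family. Its bright probe set 1452114_s_at read 3020 in wild-type and 5617 in knockout, 1.86-fold higher, with a log2 ratio of 0.90. In that signal bin 0.526% of probe sets had a ratio as high. Its suffix marks probes shared with other transcripts. The other probe set, 1422313_a_at, went from 73.3 to 177.7, 2.43-fold higher, a log2 ratio of 1.28, but it lay in the dimmest bin, where 2.66% of probe sets had a ratio as high. A floor at the 60th percentile turned that ratio into a bound of 0.08. Both ratios exceeded 2 measurement SDs.

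IGFBP1 is a secreted binding protein of liver whose gene is held down by insulin in the adult. Its only probe set, 1418918_at, read 20.5 on the wild-type array, under the floor, and 91.7 on the knockout array, so it was at least 2.23-fold higher, a log2 ratio of at least 1.16. With the floor at the 20th percentile both signals lay above it, and the log2 ratio was 2.16, no longer a bound. Liver markers were higher on the same array. Afp, the fetal serum protein, read 17.7 and 19084, and Hnf4a, a liver transcription factor, read 11.1 and 196.2. How far those tissues contributed to the Igfbp1 signal was not tested.

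IGFBP4 binds both ligands and is chiefly an inhibitor, and the protease PAPP-A cleaves it. Of its 6 probe sets, 5 were lower on the knockout array, by 1.34-fold to 1.56-fold. The brightest, 1437405_a_at, read 10223 in wild-type and 7239 in knockout, so its log2 ratio was -0.50. Probe set 1423756_s_at read 6958 and 4547, a log2 ratio of -0.61, and 1421992_a_at read 1461 and 936, a ratio of -0.64. Only these last ratios exceeded 2 measurement SDs. The suffix of 1423756_s_at marks probes shared with other transcripts. The remaining lower probe sets, 1437406_x_at and 1423757_x_at, carry a suffix that warns of cross-hybridisation and had log2 ratios of -0.44 and -0.43. Probe set 1421991_a_at read 151.7 and 153.3, a log2 ratio of 0.01, although it is annotated with the same source sequence as 1421992_a_at. The 6 probe sets are annotated with 3 source sequences. Igfbp4 is thus lower by its bright probe sets, by less than 2-fold, and its dimmest probe set gave no difference.

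Igfbp2 and Igfbp3 were close to equal on both arrays. IGFBP2 is a fetal binding protein known from the ectoderm and ridge of early limb buds, and IGFBP3 is the main carrier of IGFs in blood after birth. The probe set of Igfbp2, 1454159_a_at, read 1989 and 2114, a log2 ratio of 0.09. For Igfbp3, 1423062_at went from 940 to 1041 and 1458268_s_at, whose suffix marks shared probes, from 510.2 to 570. Their log2 ratios were 0.15 and 0.16. All 3 ratios lay within 1 measurement SD of 0, which does not show that the genotypes are alike. Markers of limb ectoderm and ridge were higher on the knockout array for 10 of 11 genes, by a median log2 ratio of 1.36. They were uneven, with Fgf8 at 0.15 and Krt8 at -0.11. Their part in the Igfbp2 signal was not tested.

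The remaining members were near or under the floor. Igfbp7 encodes a secreted protein of vessel walls that binds IGFs weakly. Its probe set 1423584_at read 59.5 and 65.4, a log2 ratio of 0.14. Another, 1437804_at, went from 17.4, under the floor, to 71.1, a lower bound of 0.79, and 1423585_at did not reach it on either, at 25.0 and 15.4. These probe sets give no common reading for Igfbp7. Igfbp6, whose protein prefers IGF2, read 43.9 on the wild-type array, just over the floor, and 5.62 on the knockout array, which allows only the statement that it was at least 1.05-fold lower. The acid-labile subunit gene Igfals, a product of liver after birth, read 9.51 and 3.17 and had no ratio. It was under the floor on the same knockout array on which 12 of 13 embryonic liver markers were above it.

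**Figure D3:**
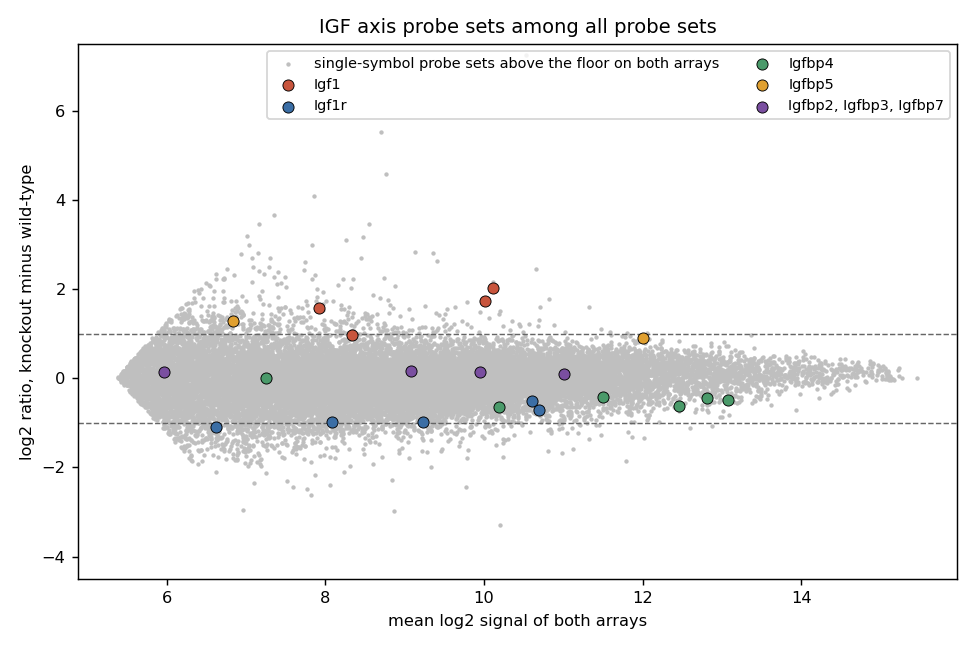
Log2 ratio (knockout minus wild-type) against the mean log2 signal of both arrays for the 20895 single-symbol probe sets above the floor on both (grey) and for the 21 members among them (coloured by gene), with dashed lines at 2-fold. The brightest Igf1 pair, at 2.03 and 1.74, stands above the grey cloud at its signal, whereas the 5 Igf1r points and 5 of the 6 Igfbp4 points lie in its lower part.

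Several of these genes are neighbours. In RefSeq genes of GRCm38.p6, Igfbp2 and Igfbp5 lie next to each other with their ends facing, and so do Igfbp1 and Igfbp3. In each pair 1 gene was higher on the knockout array, Igfbp5 at a log2 ratio of 0.90 and Igfbp1 at a bound of 1.16, and the other, Igfbp2 at 0.09 and Igfbp3 at 0.15, lay within the measurement error. The flanking genes differed little. Rpl37a, beside Igfbp2, had a ratio of 0.13, and Adcy1 and Tns3, beside Igfbp1 and Igfbp3, had ratios of 0.26 and -0.18. Tnp1, beside Igfbp5, was under the floor on both arrays.

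The 250 bases before the annotated start are shown for genes that differed, Igfbp5, Igfbp1 and Igf1r, and for Igfbp2, the neighbour of Igfbp5 that did not. Basic helix-loop-helix proteins such as BHLHA9 bind the E-box, and the FOXO factors that insulin and IGF signalling restrain act on Igfbp1 through an insulin response sequence. Capitals mark the E-box CANNTG, which reads the same on both strands, and the insulin response letters CAAAACA and CAAAATA with their reverse complements TGTTTTG and TATTTTG. No 2 of these matches overlap in the windows printed. Sequences are from RefSeq promoters of GRCm38.p6, printed on the gene's strand, 5′ to 3′.
Igfbp5, chr1:72874866-72875115, minus strand: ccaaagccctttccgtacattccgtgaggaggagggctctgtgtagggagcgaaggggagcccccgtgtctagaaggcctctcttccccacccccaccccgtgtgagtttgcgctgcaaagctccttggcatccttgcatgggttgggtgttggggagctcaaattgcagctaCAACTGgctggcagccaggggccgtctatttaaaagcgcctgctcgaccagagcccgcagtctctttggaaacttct
Igfbp2, chr1:72824230-72824479, plus strand: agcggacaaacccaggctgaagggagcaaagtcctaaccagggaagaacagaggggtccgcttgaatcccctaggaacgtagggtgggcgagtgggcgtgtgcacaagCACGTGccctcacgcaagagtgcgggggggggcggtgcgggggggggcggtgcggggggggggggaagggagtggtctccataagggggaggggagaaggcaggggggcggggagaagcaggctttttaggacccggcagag
Igfbp1, chr11:7197537-7197786, plus strand: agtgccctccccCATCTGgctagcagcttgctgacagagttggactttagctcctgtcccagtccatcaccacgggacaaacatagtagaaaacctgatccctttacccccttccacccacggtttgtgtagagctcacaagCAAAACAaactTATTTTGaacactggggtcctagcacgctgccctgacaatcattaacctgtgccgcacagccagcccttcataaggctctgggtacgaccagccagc
Igf1r, chr7:67952007-67952256, plus strand: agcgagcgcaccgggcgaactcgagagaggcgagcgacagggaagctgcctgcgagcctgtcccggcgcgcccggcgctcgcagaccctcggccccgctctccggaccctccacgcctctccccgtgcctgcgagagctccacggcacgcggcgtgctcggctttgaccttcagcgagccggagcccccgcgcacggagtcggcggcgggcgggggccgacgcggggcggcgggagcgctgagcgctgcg

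The Igfbp1 window held 1 E-box, CATCTG, and the letters CAAAACA and TATTTTG close together, from 108 to 102 and from 97 to 91 bases before the start. Of 32851 RefSeq windows of the same length, 5.56% held CAAAACA or TGTTTTG and 3.95% held CAAAATA or TATTTTG. The Igfbp5 window held 1 E-box, CAACTG, and the Igfbp2 window 1, CACGTG, while the Igf1r window held none. E-boxes are common letters, present in 66.2% of all windows with a median of 1 match. Genes that were higher on the knockout array and genes that were not therefore both held an E-box here, and a match is no evidence of binding. The windows listed for Igf1, Igfbp3 and Igfbp4 lie inside the annotated extent of the gene and are not shown.

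Other genes of the pathway were read by the brightest probe set of each, in 7 lists. Of 63 genes listed, 51 exceeded the floor on either array or both, and 1 was at least 2-fold higher and 1 at least 2-fold lower, or 1.96% each, against a background of 4.15% and 2.65% of 13088 genes. Their median log2 ratio was -0.01, and that of all genes was 0.01. With 51 genes, 1 call in each direction is close to what the array shows in general.

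The gene past 2-fold upward was Grb14, which encodes an adaptor that inhibits the insulin receptor, from 117.0 on the wild-type array to 252.9 on the knockout array, with a log2 ratio of 1.11, a call that was lost with a pseudocount of 32. Among the 9 receptor adaptors 5 ratios were positive and 4 negative. The brightest was Grb10, an imprinted inhibitor of the same receptors, at 12707 and 12639 with a ratio of -0.01. Next came Irs1, the receptor substrate, at 2093 and 2766 with a ratio of 0.40. Then came Sos1, an activator of RAS, at 1488 and 1772 with a ratio of 0.25. The dimmer probe sets of Sos1 went the other way, at -0.37 and -0.53. The gene past 2-fold downward was Esm1, a proteoglycan of endothelial cells with an IGFBP domain, from 249.3 to 88.7, a ratio of -1.49. Endothelial markers were lower for 9 of 10 genes on the same array, with a median ratio of -0.70, and their part in the Esm1 signal was not tested. The other relatives with an IGFBP domain that were above the floor included Ccn1 (-0.47), Ccn2 (0.28) and Ccn4 (0.33), matricellular proteins.

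Of the other ligand and receptor genes, the 3 above the floor on both arrays had ratios below 0, and each was short of 2-fold. Igf2, the main fetal ligand, read 20393 and 17177, a log2 ratio of -0.25, and its dimmer probe set gave -0.60. Igf2r, which clears IGF2, went from 3741 to 2364, a ratio of -0.66, and Insr, the insulin receptor, from 826 to 553, a ratio of -0.58. Ins2 read 75.0 and 36.6, the latter under the floor, so its log2 ratio of -0.85 is a bound, and Insrr was under the floor on both arrays. Igf2 by its bright probe set lay within 1 measurement SD of 0, whereas these ratios of Igf2r and Insr lay beyond 2 such SDs. The dimmer probe set of Igf2r had a ratio of -0.35, within 2 such SDs. Both Igf2 mRNA-binding proteins that were measured were lower too. Igf2bp1 had a ratio of -0.64, with -0.49 to -1.25 over its other probe sets. Igf2bp3 had one of -0.36, within 2 measurement SDs, with -0.13 to -0.89 over its other probe sets.

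By the brightest probe set of each gene, none in the lists of proteases, PI3K, AKT and mTOR signalling or the growth hormone axis passed 2-fold. Dimmer probe sets of some did, Akt1 and Pappa among them. Among 6 genes for proteases that cut binding proteins and their inhibitors, 4 ratios were positive and 2 negative. The brightest were Adam12 (-0.13), Htra1 (0.27) and Pappa, which encodes PAPP-A and went from 61.6 to 104.6, a ratio of 0.77. Of 18 genes of PI3K, AKT and mTOR signalling, 0 passed 2-fold, 8 ratios were positive and 10 negative, with a median of -0.17. Rheb, which activates mTOR, had a ratio of 0.28, the translation inhibitor Eif4ebp1 one of 0.00 and Gsk3b, a kinase that AKT restrains, one of -0.30. In the growth hormone axis, whose receptor drives Igf1 in the liver after birth, Ghr had a ratio of 0.08, Socs2, a feedback inhibitor, one of -0.65, and Jak2 one of 0.28.

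**Figure D4:**
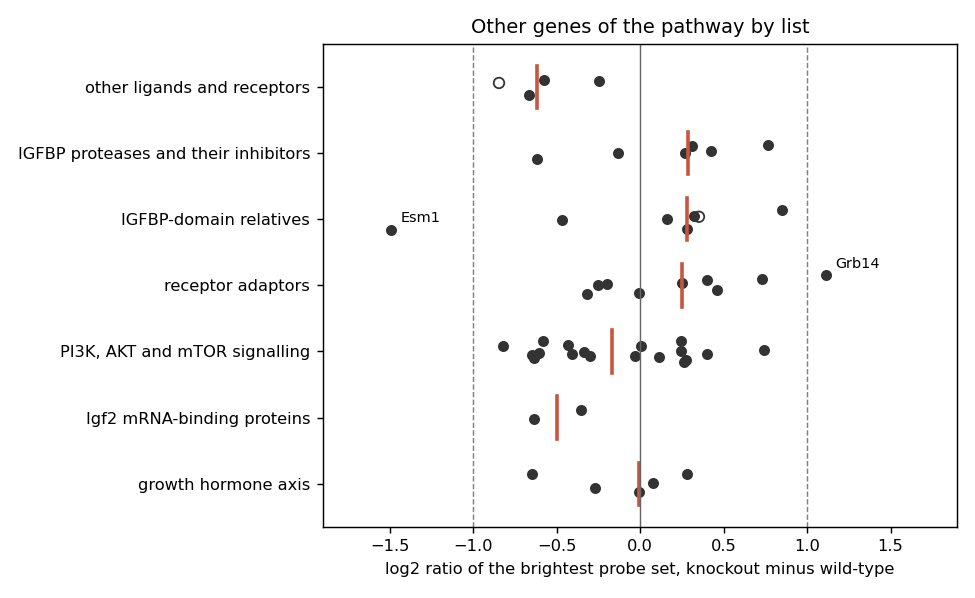
Log2 ratio (knockout minus wild-type) of the brightest probe set of each gene in 7 pathway lists, with a vertical bar at each list's median, open circles for bounds and dashed lines at 2-fold. Grb14 at 1.11 and Esm1 at -1.49 are the only genes past 2-fold, and the 4 other ligand and receptor genes plotted, Ins2 among them as a bound, lie left of 0.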

How the data were processed

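Total RNA (200 ng) from whole limb buds was labelled with a 3′ IVT kit and hybridised to 1 array a genotype, per the labels' protocols. The deposited values are MAS 5.0 intensities on a linear scale, 1 a probe set, which the authors summarised on each array separately, per the series' design text. The scaling target and detection calls are not stated in these sources. MAS 5.0 subtracts mismatch signal, so low values are noisy, and a change in the make-up of a sample shifts the other genes on its array.

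Symbols came from the platform annotation, updated by Entrez identifier through RefSeq genes of GRCm38.p6, in which 34741 of 34945 single-symbol probe sets matched. The 932 probe sets with several symbols and 9160 unnamed ones were not used, and no member was among the former. Signals under the floor, the 40th percentile of each array without its 64 control probe sets, were raised to it. Log2 ratios were taken as knockout minus wild-type, a bound where 1 array was at the floor and not given where both were. Genes of the pathway and of marker lists were read by the probe set with the highest mean signal. Calls were made at 2-fold, with no p-value; precision is limited by the number of arrays. Ratios and calls were tested on simulated data.

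The text names all 10 members, the pathway genes past 2-fold and up to 3 of the highest signal in each list, and others where a result turned on them, chosen after their values were seen. The members, lists, floor and thresholds were chosen with earlier results of these data known. The alternatives covered scaling, floor, pseudocount, fold threshold and probe set. Python 3.11.15, numpy 2.4.6, pandas 2.3.3, scipy 1.17.1, matplotlib 3.10.9, R 4.3.3 and limma 3.58.1 (quantile and loess normalization) were used.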

Additional observations from a re-analysis of the deposited data

How the results depend on the processing

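Of 138 member ratios recomputed under 6 alternatives of scaling, floor and pseudocount, 132 stayed within 1 measurement SD of the reported value, 6 moved further and 0 changed sign. The 6 belonged to Igfbp1, Igfbp6 and Igfbp7 (1437804_at), which had an array under the floor, and to Igfbp5 (1422313_a_at). The Igfbp5 probe set was above the floor on both arrays but in the dimmest signal bin. Part of the agreement of the other 132 was built in. A moved floor leaves ratios clear of it as they were, and median centring adds 0.04 to each. With the floor at the 60th percentile only 18 of the 24 probe sets had a value. Those without one are not among the 138. They were those of Igfbp1, Igfbp6 and Igfbp7, 1452108_at of Igf1r and 1421991_a_at of Igfbp4. Igf1 ratios ran from 0.89 to 2.09 over these settings and Igf1r ratios from -1.10 to -0.47. The 5 member probe sets at least 2-fold higher became 3 with the floor at the 60th percentile (all Igf1), 8 at a 1.5-fold threshold and 2 at 3-fold (both Igf1). Over all single-symbol probe sets the higher share was then 1.37%, 10.6% and 0.919%, beside 3.38% at the main settings. After median centring, quantile or loess normalization the higher member probe sets were 6, with 1452014_a_at of Igf1 added. The share over the array was 3.72%, 3.94% and 4.11% in turn. The 1 lower probe set became 2 with the floor at the 20th percentile, 0 with it at the 60th, 6 at 1.5-fold and 0 at 3-fold. The lower share over the array was 9.94%, 2.08%, 14.2% and 0.584% in turn, beside 3.89% at the main settings. A floor at the 20th percentile also added Igfbp7 (1437804_at) to the higher probe sets, where 11.1% over the array were higher. With a pseudocount of 32 the counts of 5 and 1 stayed, but Igfbp7 (1437804_at) stood in place of Igfbp5 (1422313_a_at, at 0.99) among the higher, Igfbp6 in place of Igf1r as the lower, and Igfbpl1 in place of Grb14 as the higher pathway gene. For the pathway genes, the floor at the 20th percentile gave 2 higher and 5 lower, at the 60th 0 and 0, 1.5-fold gave 5 and 10, and 3-fold 0 and 0. The median over a gene's probe sets gave 2 higher and 3 lower, and leaving out _s_at and _x_at probe sets gave 2 lower. The share over all genes was not taken in these settings, so these pathway counts have no background here. A threshold or floor changes what is counted by its construction; for the other changes the cause was not tested. No paired analysis was possible because each genotype is 1 array, and for the same reason no replicate could be left out. Signals near the floor limit what can be said of Igfbp1, Igfbp6, Igfbp7 and Igfals.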

Other observations

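Some pathway genes read differently by their dimmer probe sets than by the brightest, and they were chosen after their values were seen. Ccn1, an early response gene for a matricellular protein, had log2 ratios (knockout minus wild-type) of -0.47 and -0.38 by 2 probe sets and of -2.49 and -2.61 by the other 2, which went from 517 to 92.1 and from 557 to 91.0. Akt1, the kinase downstream of PI3K, read -0.65, -1.32 and -1.06 on its 3 probe sets. A further Pappa probe set read 11.2 on the wild-type array, under the floor, and 107.8 on the knockout array, a lower bound of 1.39 on the log2 scale. Gab1, an adaptor of receptor tyrosine kinases, read 0.73, 0.17 and 0.01 on its 3 probe sets.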
